A study of Lathyrus oleraceus with 4 samples.

Results

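Unopened flower buds of the pea cultivar Matar Ageta held 144 assembled gene entries, of 127533 in all, that were well covered in every Matar Ageta measurement and had an estimated count of 0 in every measurement of a second cultivar, Arka Chaitra. The members were chosen by their measured values: a deposited signal of at least 10 in all 4 Matar Ageta columns and an estimated count of 0 in all 4 Arka Chaitra columns. The difference between the cultivars is therefore what picked these entries, and it is given below as a description with no test. The Matar Ageta condition alone, called the floor here, was met by 10618 entries, so the members were 1.36% of them. The label of the set describes detection and not gene content: an entry listed at 0 may stand for a gene that is absent, silent, or so different in sequence that its reads were assigned to another entry, and these cannot be told apart here.

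RNA was sequenced from pre-anthesis buds, which had not yet opened, in 4 samples, 1 for each cultivar and treatment. The submitters describe Matar Ageta as heat-susceptible and Arka Chaitra as heat-tolerant. All plants were raised at day temperatures of 22 °C and night temperatures of 16 °C, heated plants then spent 2 h at 35 °C and were sampled at once, and control plants stayed at the growth temperatures. The groups are thus Matar Ageta control, Matar Ageta heat, Arka Chaitra control and Arka Chaitra heat, each with 1 sample, and no label gives the number of plants behind a sample. The genotype tag of all 4 samples names the other cultivar, a full exchange of the names in the titles. Under the tags the members would be entries detected only in Arka Chaitra, the cultivar described as tolerant. Cultivar names here follow the titles and the library names, and each statement on a cultivar is about the libraries titled with that name. Each library is deposited as 2 numbered columns. No label says what the numbers mean, so the columns were read as 2 measurements of 1 sample and not as replicates, and no test across plants could be made for any comparison. The batch tag is the same word, genotype, in every sample and identifies no batch.

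Pollen formation is among the most heat-sensitive steps of plant reproduction. Within minutes of warming, plant cells release heat shock factors, transcription factors that switch on chaperone genes, while many other transcripts decline. Cultivars of a crop can differ in which genes they carry, in which they express, and in the sequence of the copies they share. A transcriptome assembly lists transcripts as separate entries when their sequences differ enough, so the same locus can appear under several names.

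The entries carry assembly names only. In a name such as TRINITY_GG_21493_c0_g2 the first number is the cluster of reads from which the entry was assembled, and the numbers after c and g count components and genes within it. None of the names was paired with a gene: 0 of all 127533 entries, and so 0 of 144 members, matched the 65673 genes of the pea reference table. The lack of a match is therefore not particular to the members. Product names, protein families and tissue markers could not be assigned, and the flower identity of the buds was not checked against marker genes. Sequences and genome positions of the entries were not used here.

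Depth was sufficient for a low limit on the undetected side. Single columns held 11085736 to 21625288 estimated counts in Matar Ageta and 10411488 to 12898178 in Arka Chaitra. The lowest member count in any Matar Ageta column was 127. A count of 0 in an Arka Chaitra library allows up to 3 counts, which is 0.124 CPM (the count scaled to the library total) in the control and 0.132 CPM after heat. Against that limit per library, the lower bound on the excess of the members ran from 84-fold to 2830-fold in the Matar Ageta control over the Arka Chaitra control, with a median bound of 218-fold. After heat the bounds ran from 81-fold to 3147-fold, with a median of 211-fold. These bounds cover counting error only and restate the rule.

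The condition of 0 counts took the end of a continuous range. Of the 10618 entries at the floor, 235 had at most 3 counts summed over the 4 Arka Chaitra columns, 376 had at most 10, 1373 had at most 100, and 5251 had at most 1000. TRINITY_GG_10708_c0_g1 missed the rule by an estimated 0.11 counts in 1 Arka Chaitra control column, at a Matar Ageta signal of 21.7 and 21.3 in the control columns and 20.01 and 20.11 in the heat columns. TRINITY_GG_44174_c0_g1 missed it by 0.21 counts in 1 heat column. At the other condition, TRINITY_GG_21122_c0_g1 was just inside with a lowest column of 10.04 and TRINITY_GG_61415_c0_g1 with 10.08. TRINITY_GG_60182_c0_g1 and TRINITY_GG_67342_c0_g1 were just outside with lowest columns of 9.93 and 9.90. The mirrored rule, at least 10 in all 4 Arka Chaitra columns and 0 in all 4 Matar Ageta columns, gave 548 entries, 4.82% of the 11361 entries at that floor. Each cultivar's table was scaled on its own, and the difference between the numbers of entries was not tested.

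Most members were of moderate abundance. The signal is a count per scaled library with no gene length term, so levels rank entries by their share of reads and not by transcripts per cell. The mean signal over the 4 Matar Ageta columns ran from 11.4 to 352, with a median of 28.8 and quartiles of 17.3 and 53.4. For all entries at the floor the median was 30.8, the quartiles were 19.2 and 63.3, and the highest value was 6023. A mean signal of at least 100 was reached by 16 members, or 11.1%, and by 16.2% of all entries at the floor. Together the members took 0.733% and 0.700% of the signal in the control columns and 0.751% and 0.740% in the heat columns. The 10 most abundant members made up 34.6% of their summed mean signal and the first 20 made up 49.8%.

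TRINITY_GG_14757_c0_g1 had the highest mean signal, with 288 and 345 in the control columns and 489 and 287 in the heat columns. TRINITY_GG_19759_c1_g1 followed with 278 and 409 in the control and 305 and 238 after heat. TRINITY_GG_15657_c1_g1 had 256 and 375 in the control and 415 and 170 after heat. In each of these 3 members the heat columns overlapped the control columns, and the ratio of the library means was below 1.5-fold in either direction. TRINITY_GG_48329_c0_g1 had 405 and 295 in the control and 164 and 263 after heat. Both of its heat columns lay below both control columns, and its log2 ratio of heat to control was -0.71. The fifth by mean signal, TRINITY_GG_21493_c0_g2, varied most among the first 6, with 366 and 29.0 in the control and 154 and 409 after heat. TRINITY_GG_14759_c0_g1 was the sixth, with 203 and 210 in the control and 286 and 194 after heat.

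**Figure D1:**
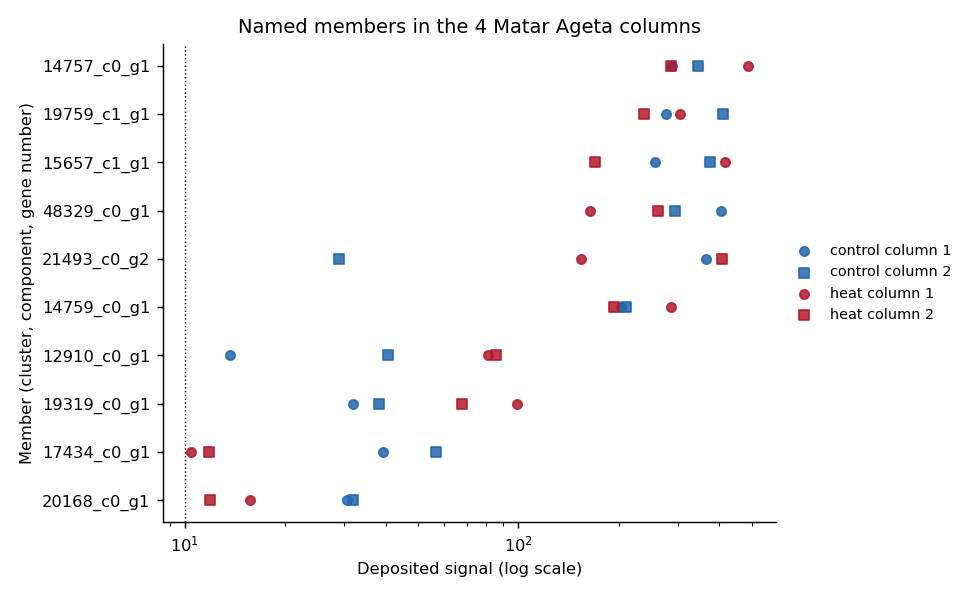
Deposited signal (log scale) of the 6 members with the highest mean signal and of the 4 members with the largest heat ratios in either direction, with 1 point for each Matar Ageta column. Circles are columns 1 and squares columns 2, in blue for control and red for heat, and the dotted line is the floor of 10. In 21493_c0_g2 the columns of the control library stand at 366 and 29.0, whereas in 17434_c0_g1 both heat columns lie near the floor.

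Some members repeated each other exactly. TRINITY_GG_14759_c0_g1 and TRINITY_GG_14770_c0_g1 had the same signal in every column. TRINITY_GG_12931_c0_g1 and TRINITY_GG_25145_c0_g1 shared 22.2 and 39.3 in the control and 35.1 and 33.1 after heat, although their cluster numbers are far apart. TRINITY_GG_33147_c0_g1 and TRINITY_GG_65567_c0_g1 likewise shared 11.4 and 12.4 in the control and 18.8 and 13.5 after heat. The 144 members thus held 141 distinct profiles. Entries with a twin made up 4.17% of the members and 0.433% of all entries at the floor (46 entries). Estimated counts split reads between entries that cannot be distinguished by sequence, and such a pair may hold 1 set of reads listed under 2 names. Whether the sequences are identical was not tested.

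The heat response of the members was small in most cases. The log2 ratio of the heat library to the control library, each the mean of its 2 columns, had a median of 0.11 (1.08-fold) with quartiles of -0.17 and 0.41, and ran from -2.11 to 1.62. Over all entries at the floor the median was -0.03 with quartiles of -0.27 and 0.22. Of the members 119, or 82.6%, lay within 1.5-fold of the control, against 85.3% of all entries at the floor. At least 1.5-fold higher were 16 members (11.1%, against 7.14% of all entries at the floor) and at least 1.5-fold lower were 9 (6.25%, against 7.52%). At least 2-fold higher were 4 members (2.78%), against 1.36% of all entries at the floor. At least 2-fold lower were also 4 members (2.78%), against 1.79%. With control column 2 alone as the control, 12 members were at least 2-fold higher (8.33%, against 5.73% of all entries at the floor) and 7 at least 2-fold lower (4.86%, against 3.32%). With control column 1 alone, 3 members were higher and 3 lower, and the share over the entries at the floor was not computed. Because the rule requires a signal of 10 in every column, members that all but vanish in either condition could not enter, and the same holds for the entries at the floor. With 1 library per condition there is no replicate check of these ratios.

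**Figure D2:**
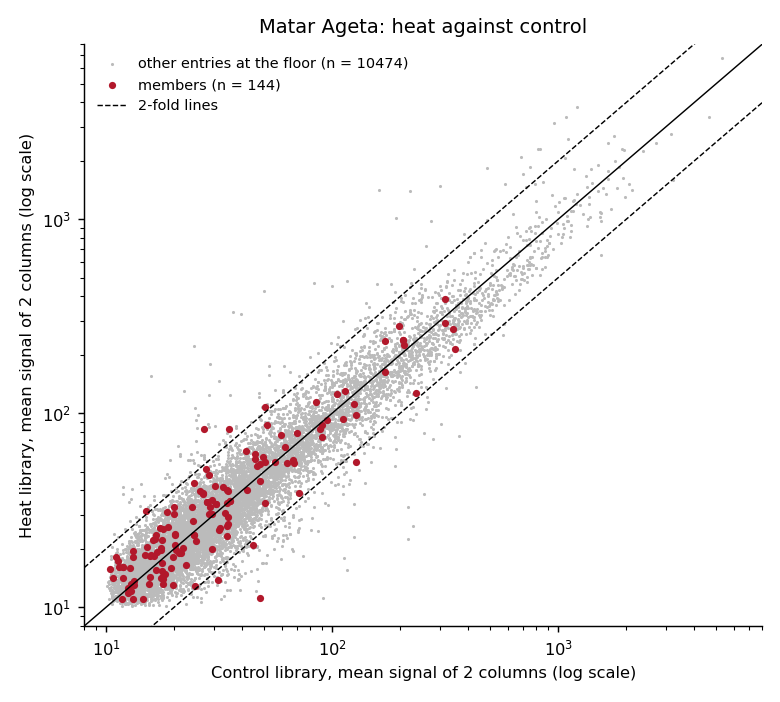
Mean signal of the 2 heat columns against the mean signal of the 2 control columns in Matar Ageta, both on log scales, for 144 members (red) and 10474 other entries at the floor (grey). The solid line marks equal signal and the dashed lines 2-fold differences. The members lie within the spread of the other entries, with 4 above the upper and 4 below the lower dashed line.

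TRINITY_GG_12910_c0_g1 had the largest ratio among members whose heat columns were both above their control columns. Its signal was 13.7 and 40.6 in the control and 80.9 and 85.8 after heat, a 3.07-fold ratio of the means. The log2 ratio was 1.62, and the exact 95% counting interval from the summed counts was 1.497 to 1.725. The control columns of this member were themselves more than 2-fold apart. TRINITY_GG_19319_c0_g1 was next, with 31.9 and 38.1 in the control and 99.3 and 67.6 after heat. Its ratio was 2.38-fold, or 1.25 on the log2 scale, with a counting interval of 1.22 to 1.42.

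In the other direction, TRINITY_GG_17434_c0_g1 went from 39.2 and 56.5 in the control to 10.4 and 11.8 after heat. The control was 4.31-fold the heat library, a log2 ratio of -2.11 with a counting interval of -2.31 to -1.97. Its 2 columns differed less within each library than between the libraries. The member 4 cluster numbers before it was also over 2-fold lower, at 86.1 and 168 in the control and 51.6 and 61.0 after heat, with a log2 ratio of -1.18. TRINITY_GG_20168_c0_g1 had 30.5 and 32.0 in the control and 15.6 and 11.9 after heat. Its log2 ratio was likewise -1.18, and from the summed counts it was -1.14, with a counting interval of -1.30 to -0.98. The intervals cover counting error only.

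In 47 members (32.6%) each heat column exceeded each control column, against 19.5% of all entries at the floor. In 25 members (17.4%) both lay below, against 24.7%. In the other 72 members the columns of the libraries overlapped. A log2 ratio above 0 was found in 82 of 144 members (56.9%), against 46.2% of entries at the floor. Relative to the other entries at the floor in the same window of 1000 cluster numbers, the median log2 ratio of the members was 0.10, and 82 members were above the median of their window. Of the 20 most abundant members, 9 had a log2 ratio above 0, their log2 ratios ran from -1.18 to 0.51, and 3 had both heat columns above both control columns while 5 had both below. Across the 144 members, Spearman's rho between the mean signal and the log2 ratio was 0.0243. Entries are not independent replicates, and none of these shares was tested.

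**Figure D3:**
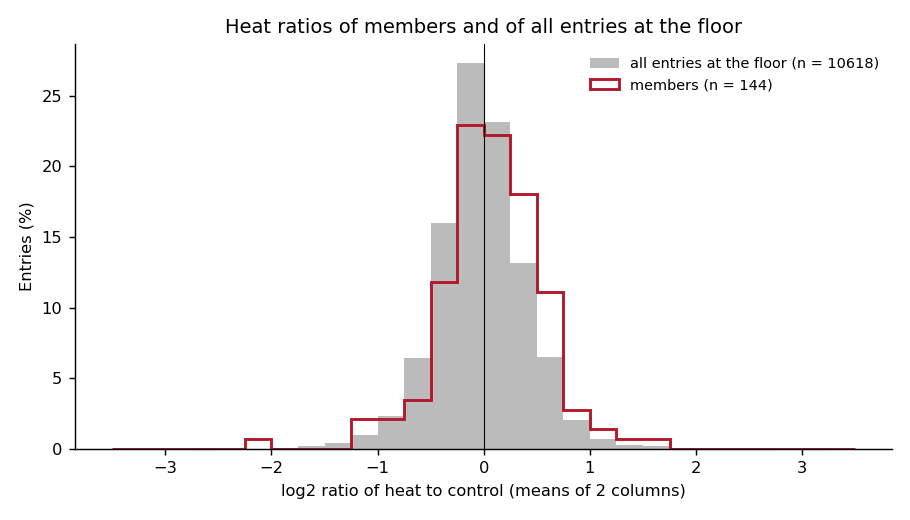
Distribution of the log2 ratio of heat to control in Matar Ageta in bins of equal width, as a percentage of the 144 members (red outline) and of all 10618 entries at the floor (grey). The medians were 0.11 and -0.03, and the distributions overlap over nearly their whole width.

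Ratios computed from each pair of like-numbered columns showed how far the columns repeat each other. The median over members was 0.06 for columns 1 and 0.12 for columns 2 on the log2 scale, against -0.02 and -0.05 over the entries at the floor. Across members the 2 ratios had a Pearson's r of 0.184 and a Spearman's rho of 0.216, and across all entries at the floor 0.0539 and 0.0775. These are descriptions across entries of the same libraries. Within libraries, the control columns were at least 2-fold apart in 8 members (5.56%, against 6.80% of entries at the floor). The heat columns were at least 2-fold apart in 6 members (4.17%, against 6.07%). The remaining 131 members had columns within 2-fold in both libraries, and at least 2-fold differences were seen in 3 of these upwards (2.29%) and in 3 downwards after heat. Of the 9453 entries at the floor with columns as close, 0.878% were higher and 1.27% lower by that measure.

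Members were spread over most of the numbering but not evenly. They came from 141 of 69607 clusters and from 45 of 70 windows of 1000 cluster numbers, with at most 9 in a window. The share of entries that were 0 in all 4 Arka Chaitra columns, whatever their level in Matar Ageta, fell into separate ranges along the same numbering. In 45 windows it was 12.04% to 29.4%, and in the other 25 it was 3.73% to 8.78%. The value of 10% that separates these windows was chosen after seeing the data. The windows formed 8 unbroken runs. The 45 windows with the higher share are not all the same as the 45 windows that held a member. Those with the higher share held 139 of the 144 members (96.5%) and 61.3% of the entries at the floor. Members were thus 2.14% of the floor entries there and 0.122% in the other 25. The share of entries at 0 in all 4 Matar Ageta columns went the other way, with 14.6% to 22.0% in the 45 windows and 21.5% to 30.1% in the 25. Of the 548 entries from the mirrored rule, 74 (13.5%) lay in the 45 windows. The members and the windows rest on the same Arka Chaitra zeros, so this is a description of where they lie.

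**Figure D4:**
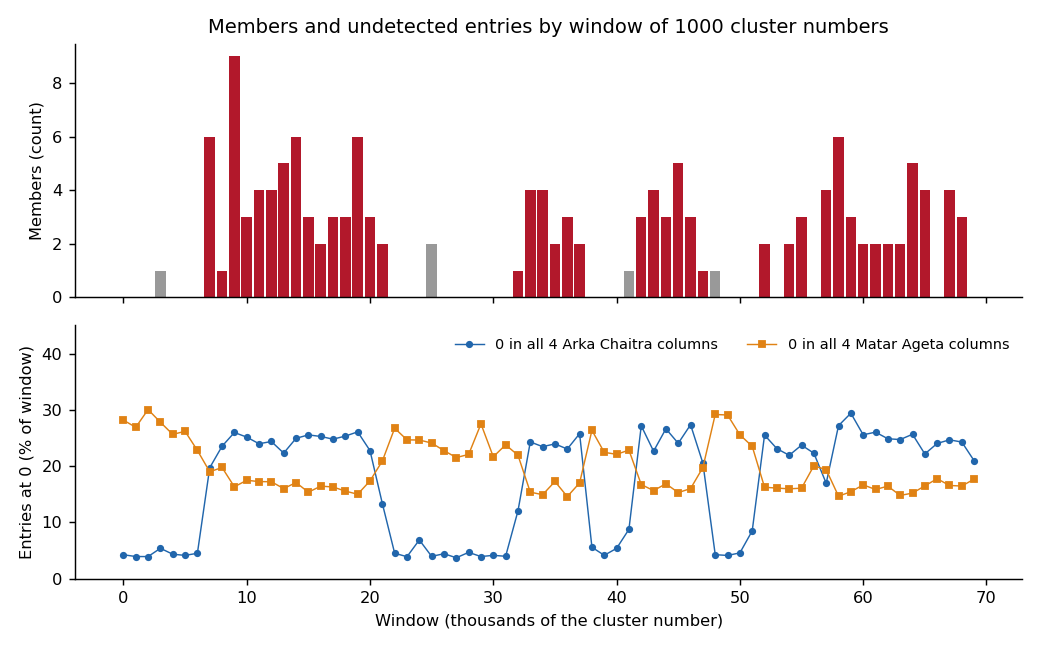
Top, members in each window of 1000 cluster numbers, in red for windows in which at least 10% of entries were 0 in all 4 Arka Chaitra columns and in grey for the others. Bottom, the percentage of all entries of the window that were 0 in all 4 Arka Chaitra columns (blue) and in all 4 Matar Ageta columns (orange); the red windows hold 139 of 144 members.

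Cluster numbers 7000 to 21999 held 60 members, which were 2.57% of the 2339 floor entries in that run. Numbers 32000 to 37999 held 16 (2.08%), 42000 to 47999 held 19 (2.35%) and 52000 to 69607 held 44 (1.70%). The median log2 ratio of heat to control among members was -0.04 in the first of these runs, 0.20 in the second, 0.22 in the third and 0.12 in the fourth. Other entries at the floor had medians of -0.02, 0.02, 0.01 and -0.004 in the same runs. In the first run 16 members had both heat columns above and 14 had both below the control columns. In the second these counts were 7 and 0, in the third 8 and 3, and in the fourth 14 and 7. Of the other entries at the floor in the 4 runs, 21.02%, 20.6%, 22.2% and 21.8% had both heat columns above, and 23.3%, 18.4%, 21.2% and 24.3% had both below. The first run held 3 of the 4 members that were at least 2-fold higher and all 4 that were at least 2-fold lower. It also held the most members, 60 of 144. Shares of floor entries at least 2-fold higher or lower were not computed by run, so a link of these members to the run was not tested.

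The 5 members outside these runs had cluster numbers 3477, 25145, 25147, 41071 and 48329. The member of cluster 3477 was the only member among 1081 floor entries in its run. Its signal was 53.6 and 46.9 in the control and 127 and 86.9 after heat, a log2 ratio of 1.09. The entry of cluster 25145 was the twin of TRINITY_GG_12931_c0_g1 described above.

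Single clusters seldom held several members. In 3 clusters there were 2 members. TRINITY_GG_9771_c0_g1 had 16.4 and 13.6 in the control and 34.9 and 27.5 after heat, whereas TRINITY_GG_9771_c0_g2 had 11.0 and 15.8 in the control and 12.5 and 13.7 after heat. In cluster 7577 the log2 ratios were 0.03 and 0.45, and in cluster 13878 they were 0.47 and 0.003. The only members with consecutive cluster numbers were TRINITY_GG_12910_c0_g1, described above with a log2 ratio of 1.62, and TRINITY_GG_12909_c0_g1 with -0.56. In all, 13 pairs of members that follow each other lay within 10 cluster numbers, the 3 pairs within a cluster included. In 8 of the 13 the ratios had the same sign. No like share was computed for entries at the floor, so whether neighbours respond alike was not tested.

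Members that shared a cluster had a partner with Arka Chaitra counts less often than entries at the floor that shared a cluster. Of the members, 84 (58.3%) were the only entry of their cluster, against 40.9% of entries at the floor, and for these the rule itself fixes the 0 of the cluster. The other 60 shared a cluster with further entries. For 24 of these, every other entry of the cluster was also 0 in Arka Chaitra. They include the members of clusters 7577 and 13878, where both entries are members and the rule again fixes the 0. For 36 members (60.0% of the 60), another entry of the cluster had Arka Chaitra counts, against 89.1% of the 6271 entries at the floor that shared a cluster. The windows with the higher share of Arka Chaitra zeros held 96.5% of members but 61.3% of entries at the floor. The partner shares were not compared within those windows, and the difference was not tested. In 8 members the other entry had over 100 counts there, and in 4 it had a mean Arka Chaitra signal of at least 10. No cluster held both a member and an entry of the mirrored rule. The 84 members alone in their cluster could not share it with one, and no like share was computed for the entries at the floor.

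TRINITY_GG_21493_c0_g2 had the most abundant such partner. The other entry of its component, TRINITY_GG_21493_c0_g1, had 943 and 803 in the Arka Chaitra control columns and 351 and 365 in the heat columns. In Matar Ageta this partner had 15.2 and 136 in the control and 18.0 and 2.48 after heat. The column in which the member was low (29.0, control column 2) was the column in which the partner was highest (136). The sum of both entries was 381 and 165 in the control and 172 and 411 after heat, so the Matar Ageta columns also differed in the sum. Arka Chaitra and Matar Ageta signals were scaled separately, and only the presence of signal is read across them.

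**Figure D5:**
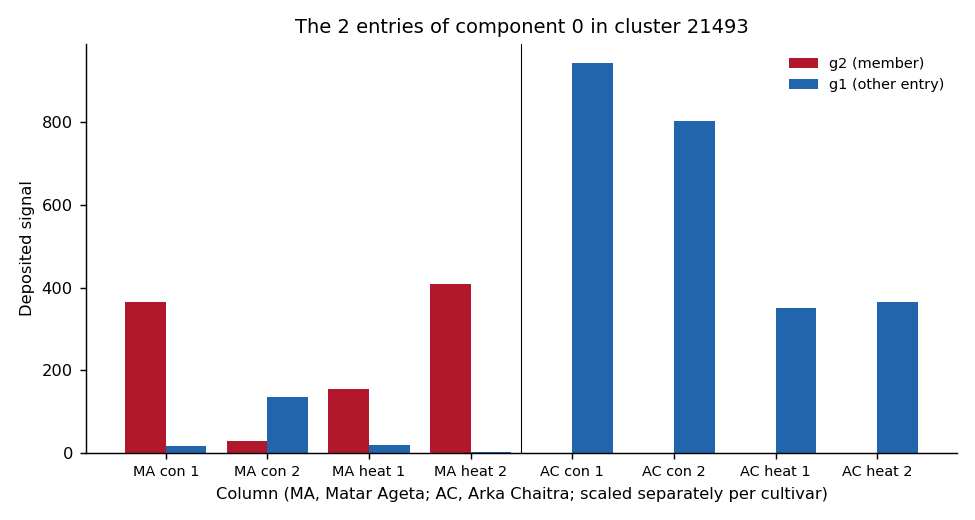
Deposited signal of the member g2 (red) and of the other entry g1 (blue) of component 0 in cluster 21493, in the 4 Matar Ageta (MA) and 4 Arka Chaitra (AC) columns. The member is 0 in every AC column, where g1 is 351 to 943, and in MA control column 2 the member is at 29.0 while g1 is at 136.

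TRINITY_GG_19319_c0_g1, named above for its higher signal after heat, shared its cluster with TRINITY_GG_19319_c1_g1. That entry was 110 and 213 in the Matar Ageta control and 2193 and 628 after heat, and 1406 and 129 in the Arka Chaitra control and 324 and 326 after heat. In Matar Ageta both entries were thus higher in both heat columns than in both control columns. In Arka Chaitra the partner's control columns differed more than 10-fold and enclosed its heat columns. TRINITY_GG_19759_c1_g1, the second by mean signal, shared its cluster with TRINITY_GG_19759_c0_g1, which had 249 and 325 in the Matar Ageta control and 313 and 286 after heat. This partner was also present in Arka Chaitra, at 47.2 and 61.1 in the control and 33.8 and 33.2 after heat. TRINITY_GG_12909_c0_g1 had a partner of like level, at 32.6 and 40.1 in the Matar Ageta control and 27.25 and 23.7 after heat. In Arka Chaitra this partner had 22.0 and 9.91 in the control and 22.15 and 18.4 after heat. In these 4 clusters the member was at 0 in Arka Chaitra while a neighbouring entry of the same cluster was not.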

How the data were processed

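RNA from pre-anthesis buds was sequenced in 4 samples. The submitters' processing notes list FastQC, STAR, Bowtie2, RSEM and DESeq2 without saying what each did, and the build is not given in the sources used here. For each cultivar the authors deposited expected counts per assembled entry and a signal, which their table marks as TMM and which equals the count times 1 constant per column. Columns of no sample numbered 0.

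Members were found by the stated rule, and members and lists were chosen with earlier results of these data known. The heat ratio is the mean signal of the 2 heat columns over that of the 2 control columns, with no pseudocount. Counting intervals are exact (Clopper-Pearson, 95%) on summed, rounded counts. They belong to the ratio of those counts, which can differ from the ratio of column means. No test across samples was possible. The ratio rule was tested on simulated data with counting error only, which does not cover the spread seen between columns. Scaling alternatives used edgeR 4.0.16 and DESeq2 1.42.0 under R 4.3.3, and other steps Python 3.11.15 and pandas 2.3.3. Named entries were the 6 highest by mean signal, the 2 largest ratios in each direction with columns that do not overlap, those next to each threshold, and those sharing or adjoining clusters; partners in the same cluster, twins, the members of other runs and the member beside TRINITY_GG_17434_c0_g1 were chosen after their values were seen. Planned gene lists by product name could not be applied. Windows of cluster numbers were described after seeing the data.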

Additional observations from a re-analysis of the deposited data

How the results depend on the processing

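The number of members followed the thresholds: 262 at a floor of 5, 69 at a floor of 20, 1475 with any signal above 0 in all 4 Matar Ageta columns, and 235 when up to 3 summed Arka Chaitra counts were allowed; a floor of 10 CPM from library totals gave 142. Counts of members at least 2-fold higher and lower after heat were 14 and 7 at a floor of 5, 2 and 1 at a floor of 20, and 3 and 2 with a pseudocount of 5. They were 4 and 4 with edgeR's TMM, DESeq2's size factors and library totals. Leaving out each column in turn gave 3 to 12 higher and 3 to 7 lower members, with the highest of both without control column 1, and median log2 ratios of 0.07 to 0.16. The median log2 ratio was 0.059 with up to 3 Arka Chaitra counts allowed and stayed above 0 in all 14 alternatives. Both heat columns were above both control columns in 17 and below in 13 of the 69 members at a floor of 20. With up to 3 Arka Chaitra counts allowed they were above in 69 and below in 47 of 235. The floor of 10 is unchanged there, and 19.5% of all entries at it were above and 24.7% below. Shares over all entries were not computed at floors of 5 and 20, with the pseudocount, or with the other scalings. Of the columns left out in turn, only control column 1 has such a share, given above. A limit of over 100 counts left 8 members with an Arka Chaitra partner, and no like share was computed over the entries at the floor. The median log2 ratio of heat column 1 to heat column 2 was 0.02 in the deposited signal and -0.063 with library totals. Where thresholds changed, the number of entries changed with them by construction; for the omitted control column the cause was not tested. No paired analysis was possible because each group has 1 sample and no test was made. Alternatives added after seeing the data were dropping twins, keeping members with columns within 2-fold, and subtracting the window median, and gave 3 or 4 higher, 3 or 4 lower and medians of 0.09 and 0.10.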
